A study of Danio rerio with 12 samples.

Results

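The comparison described here is that of glucocorticoid receptor (GR) morphants with mispair controls at 24 hours post fertilization (hpf). It rests on 6 Agilent one-color arrays, 3 labelled morpholino (MO) and 3 labelled mispair (MP), of 12 arrays in the series, and the arrays were chosen by their sample labels alone. The series holds 4 groups, since the same 2 injections were also sampled at 36 hpf. Zebrafish embryos at the one-cell stage received 4.4 ng of oligonucleotide in 1 nL. In the MO group this was an antisense morpholino against the translation start of the GR transcript nr3c1. The MP group received a control oligonucleotide described as having 5 changed bases. Each array measured RNA of 1 pool of 25 whole embryos, homogenized without separation of tissues. The 3 pools of a group came from different breeding events on separate days, so their spread holds both biological and technical variation.

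The morpholino covers the start codon of the transcript and is shown because it tells which step was targeted, translation and not RNA synthesis. The capitals mark the complement of the start codon, at positions 19 to 21 of its 25 bases counted from the 5′ end.
GR morpholino: ctccagtcctccttgatcCATtttg
The sample labels print this sequence for the control as well, although they describe changed bases. The study prints another sequence for the control, and its length differs from that of the morpholino. The sequence of the mispair oligonucleotide was therefore not settled.

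The GR is a nuclear receptor that binds cortisol in the cytoplasm, moves to the nucleus and raises or lowers the transcription of target genes. Zebrafish eggs hold maternal cortisol and maternal GR mRNA before the embryo makes its own. At 24 hpf a zebrafish embryo has nearly finished making somites, its first muscle fibers are contracting, the heart has begun to beat, and lens, retina and brain are starting to differentiate. In whole embryos, fewer cells of a type and less RNA per cell cannot be told apart, and this holds for every tissue named below.

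Each expression level below is the log2 of an array's background-subtracted intensity over that array's median for a fixed set of bright probes, so 0 is the level of a typical bright probe and negative values are dimmer. A log2 change is the mean of the MO arrays minus the mean of the MP arrays, and a change of 1 is a doubling. Genes were compared by limma's moderated test, and rose, fell or changed is written only of genes with a Benjamini-Hochberg adjusted p under 0.05 over all genes tested. Directions are those of the array labels, and MO and MP arrays below always means the arrays labelled so. They oppose the directions the study gives for its arrays, since genes it calls upregulated after knockdown were lower in the arrays labelled MO. They also oppose its PCR on separate pools of embryos, which covered selected genes at the later time point only. The study gives no PCR values for the time point compared here. Whether its ratios or the labels of the arrays are turned was not settled, and if the labels were exchanged, every rise and fall below would change place. The morpholino acts on translation, so the level of nr3c1 mRNA gave no check of the labels. It was -0.78, -0.38 and -0.61 on the MO arrays and -0.51, -0.58 and -0.38 on the MP arrays, and the groups overlapped (log2 change -0.098, SE 0.13, adjusted p = 0.55).

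The 6 arrays were alike in brightness, with a median probe intensity of 129.0 to 170.5 and 80.4 to 82.5% of probes well above background. No spot was saturated. Of 80 genes written down as defining a tissue or pathway and found on the array, 75 were well above background on all 6 arrays, 4 on some of them and 1 on none, so the arrays hold the tissues of a whole embryo. Each of 3 slides carried 1 MO and 1 MP array, which allowed a comparison within each slide. Of 4999 changed genes measured on every slide, 4984 had the same direction on all 3. These genes were called on the same 6 arrays, so this count is largely set by the calling and is no separate check.

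Between MO and MP, 48.3% of the 10353 genes tested changed, 24.3% being higher in MO and 24.0% lower. The 3 MO values lay wholly above or below the 3 MP values for 59.8% of the genes. A rise above 10-fold was seen for 76 genes and a fall of that size for 10. The changes were spread over the whole range of levels, with 838 rises and 778 falls among the dimmest 3451 genes and 799 and 834 among the brightest 3451. Since 48.3% of all genes changed, a like share within a list says nothing particular about that list. Each list below is therefore given by its counts in each direction and its median log2 change, against a median of 0.0070 over all genes tested. In all, 78 lists of tissue and pathway genes were compared, of which 44 had a median above 0 and 34 below it. Of these, 64 had 1 direction within all 3 slides and both scan sessions. Scan sessions were formed here from the scan date and time in the file headers, with each day cut at noon. The sessions regroup the same arrays as the slides, and by this cut the MO and MP arrays of slide 2 fell in different sessions. Agreement across sessions is therefore no check separate from that across slides. Genes of a list that the study itself names are counted, but those described individually are mostly genes it does not name. In 30 of the lists leaving out 1 array moved the count of rises or of falls by more than 1.5 times, and in 21 of them this touched only counts of 5 or fewer. A single fit of all 12 arrays, which includes the dimmer arrays at 36 hpf, called fewer genes by more than 1.5 times in 54 of the 78 lists and turned no median. A value in parentheses after a gene is its log2 change. A fold written as at least is a bound set from the dimmest value detected on each array, not from a detection limit of the probe.

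**Figure D1:**
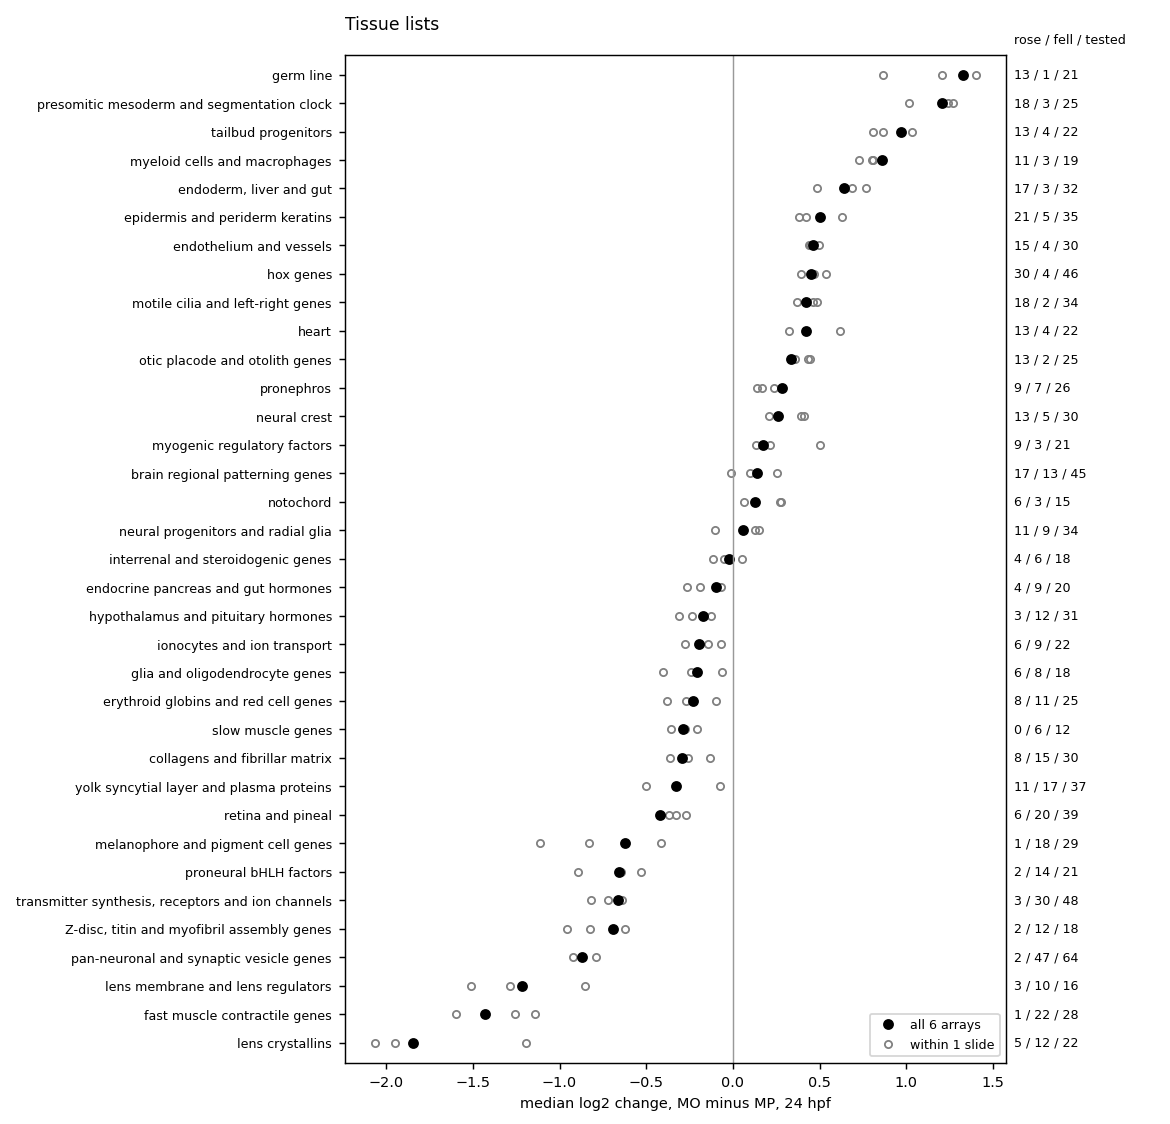
Median log2 change, MO minus MP at 24 hpf, of each tissue list (filled point), with the medians within each of the 3 slides (small open points), and the counts of genes that rose, fell and were tested at the right. Lists of presomitic mesoderm, tailbud and germ line lie to the right of 0, and lists of fast muscle, lens and neurons lie to its left.

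Genes of the unsegmented tail were among those that rose most. The segmentation clock is the oscillating circuit of hairy-related repressors and Delta-Notch signals that cuts the presomitic mesoderm into somites. Of 25 genes tested, 18 were higher in MO, 3 were lower and 4 did not pass the test, with a median of 1.21. The median was 1.27, 1.01 and 1.24 within slides 1, 2 and 3. The clock gene her7 was 0.84, 0.27 and 0.25 on the MO arrays and -2.54, -2.8 and -2.62 on the MP arrays, with no overlap and a narrow spread in both groups (log2 change 3.11, SE 0.17, adjusted p = 4.1e-06). Its partner her1 rose as well (3.07), although 2 of the 3 MP arrays measured it above background. The mesp genes set the border of the next somite, and mespaa was 0.91, 0.53 and 0.78 on the MO arrays and -3.02, -3.13 and -3.15 on the MP arrays (log2 change 3.84, SE 0.13, adjusted p = 6.1e-07). The MO values of mespaa were thus all positive while the MP values were all near -3. Also higher were tbx16l (3.3), a T-box factor of paraxial mesoderm, and ripply1 (3.13), which ends the presomitic program at the border. The falls in this list were small and lay in genes that modulate Notch, namely nrarpb (-0.91), lfng (-0.50) and nrarpa (-0.36).

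The tailbud holds the progenitors that feed the growing axis. Of 22 genes tested, 13 were higher in MO, 4 were lower and 5 did not pass the test, with a median of 0.97 (0.86, 0.81 and 1.03 within the slides). Without MO replicate 1 or MP replicate 3 only 2 fell. The largest rises were those of wnt8a (3.25) and fgf17 (2.48), ligands that keep the progenitors dividing, and of cdx4 (2.91), a homeobox factor of the posterior body. The mesoderm factor tbxta, which defines the list, was 2.14, 2.01 and 2.01 on the MO arrays and 0.95, 1.91 and 1.02 on the MP arrays. One MP array, replicate 2, lay close to the MO arrays, but the groups did not overlap (log2 change 0.76, SE 0.23, adjusted p = 0.022). The call of tbxta was not stable, since it did not pass without MO replicate 1 (adjusted p = 0.065), MO replicate 2 (adjusted p = 0.058), MP replicate 1 (adjusted p = 0.068) or MP replicate 3 (adjusted p = 0.076). The gene hoxb13a, of the group that ends axis growth, went the other way. Its expression was -2.21, -2.27 and -1.98 on the MO arrays and -0.89, -0.53 and -0.89 on the MP arrays, a fall with no overlap (log2 change -1.39, SE 0.14, adjusted p = 9.6e-05). Over all hox genes, which give cells their position along the body, 30 of 46 rose and 4 fell, or 1, 2 and 1 without MO replicate 1, MO replicate 3 or MP replicate 1, with a median of 0.45. The rises included anterior hoxb1a (1.87) and posterior hoxd12a (1.62) and hoxa13b (1.5).

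The FGF and Wnt lists, whose pathways act in the tail and in other tissues, leaned upward as well. In whole embryos the tissue of these rises was not measured. Of 34 genes of the FGF pathway 17 rose and 1 fell, and the share that changed was near that of all genes. The feedback inhibitors that FGF signalling itself switches on, spry4 (0.87), dusp6 (0.54), spry1 (1.41) and il17rd (1.7), were all among the rises. Of 55 Wnt genes 29 rose and 9 fell. The Wnt effector lef1 (1.45) rose, but the classical Wnt target axin2 (-0.22, adjusted p = 0.16) did not pass the test, and the receptor fzd5 (-1.47), which is used in eye and forebrain, fell. Retinoic acid opposes FGF in the tail. The list of its metabolism and receptors was mixed, with 13 rises and 9 falls among 41 genes and a median of 0.18. The share that changed was near that of all genes. The degrading enzyme cyp26a1 (1.84) was higher, while the retinol carrier rbp4 (-2.08) and the nuclear receptor nr2f1b (-1.17) fell. The notochord list was mixed, with 6 rises and 3 falls among 15 genes. The early notochord factor noto (2.48) rose, the matrix gene col9a2 (-0.36) fell by the probe used, while its second probe gave -0.020, and shha (0.13, adjusted p = 0.39), the signal that the notochord sends to its neighbours, did not pass the test, although it passed without MP replicate 2 (adjusted p = 0.014).

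In skeletal muscle the regulators changed in both directions, while the fast contractile genes mostly fell. Of 28 genes tested, 1 was higher in MO, 22 were lower and 5 did not pass the test, with a median of -1.43 (-1.26, -1.14 and -1.6 within the slides). The calcium store protein casq1b was -0.71, -0.88 and -0.59 on the MO arrays and 1.85, 1.8 and 1.86 on the MP arrays, so every MO value was negative and every MP value near 1.8 (log2 change -2.56, SE 0.10, adjusted p = 8.7e-07). The calcium buffers pvalb1 (-2.37) and pvalb2 (-2.25) fell by similar amounts. The study names 16 of the 28 genes of this list from these arrays, so its direction is not independent evidence. The single rise was that of tnni2b.2 (2.56), an inhibitory troponin, and without MO replicate 3 there were 3 rises. With the floor set after scaling the call of tnni2b.2 was lost. Among slow muscle genes 6 of 12 fell and none rose, a share near that of all genes. Expression of tnni1d was -5.22, -5.21 and -4.63 on the MO arrays and -2.29, -2.33 and -2.28 on the MP arrays (log2 change -2.72, SE 0.19, adjusted p = 1.3e-05), and the calcineurin-binding Z-disc protein myoz1b (-2.07) fell too, while the main slow myosin smyhc1 (0.15, adjusted p = 0.20) did not pass the test. Of 18 genes of the Z-disc and of myofibril assembly 12 fell and 2 rose, with cavin4a (-2.44), a coat protein of muscle caveolae, and smyd1a (-1.47), a methyltransferase that assists myosin folding, among the falls. The chaperone unc45b (-0.15, adjusted p = 0.27) did not pass the test.

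The regulators of the same lineage leaned slightly upward. Of 21 myogenic regulatory genes 9 rose and 3 fell, with a median of 0.17. In the single fit of all 12 arrays 2 rose and 3 fell. The earliest of them, myf5, was 2.82, 2.72 and 2.92 on the MO arrays and 0.17, -0.13 and 0.046 on the MP arrays (log2 change 2.79, SE 0.11, adjusted p = 7.6e-07), and myod1 (1.0) and prdm1a (1.69), which directs slow fibers, also rose. The falls included lbx1a (-1.07), a factor of migrating muscle precursors, and mef2aa (-1.02), a factor of differentiating fibers. Enzymes of energy metabolism leaned downward. All 22 changed genes of the 29 tested for the tricarboxylic acid cycle fell, including pdha1b (-1.48) of the pyruvate dehydrogenase complex and got2a (-1.36). The call of pdha1b was lost with normexp background correction, the floor set after scaling and the methods' t-test. In the single fit of all 12 arrays the calls of pdha1b and got2a were both lost. Of 35 genes of fatty acid oxidation 22 fell against 1 rise. Of 64 genes of the respiratory chain and ATP synthase 31 fell and 2 rose, by a median of -0.23 over the list. The share that changed was near that of all genes. Glycolysis was mixed. The muscle isozymes pfkmb (-2.26) and gpib (-2.45) fell, whereas pfkfb3 (3.02), which makes the activator of phosphofructokinase, and aldoaa (1.42) rose.

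**Figure D2:**
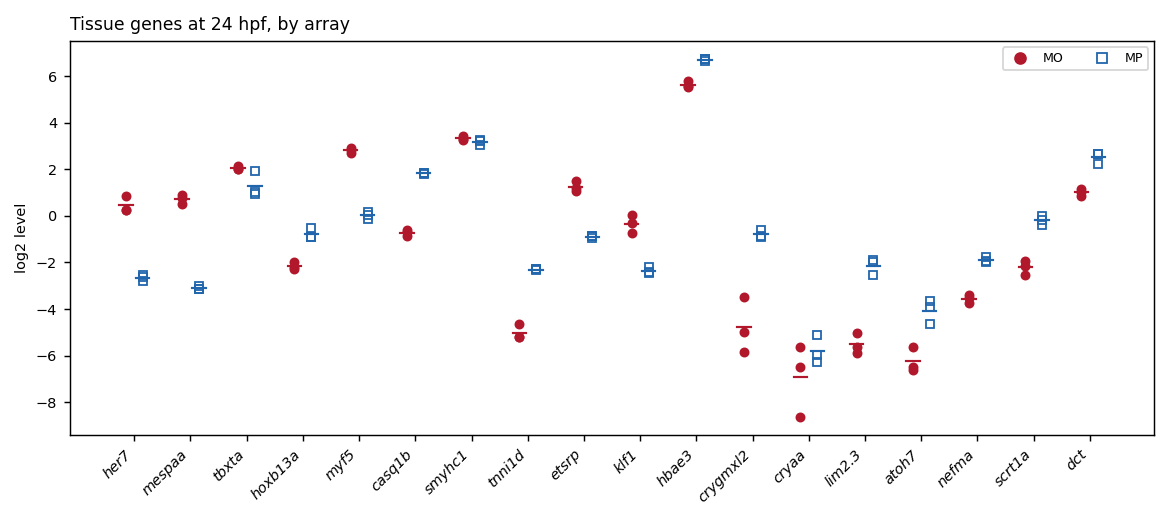
Expression level (log2, relative to each array's set of bright probes) of 18 tissue genes on the 3 MO arrays (filled circles) and the 3 MP arrays (open squares) at 24 hpf. Each point is 1 array and horizontal bars are group means. The groups overlap only for cryaa, and the changes of cryaa and smyhc1 did not pass the test.

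The heart and vessel lists leaned upward. Of 22 heart genes 13 rose and 4 fell, with a median of 0.42. The cardiac T-box factor tbx20 (3.17) rose, with 2 of 3 MP arrays above background, and so did nkx2.7 (1.7) and has2 (2.21), the hyaluronan synthase of the heart cushions. The defining light chain gene myl7 (-0.29) fell slightly, a call that was not stable, since it did not pass without MO replicate 1 (adjusted p = 0.10), MO replicate 2 (adjusted p = 0.13), MP replicate 1 (adjusted p = 0.12) or MP replicate 3 (adjusted p = 0.14). The natriuretic peptide nppa (-1.38), a product of the working myocardium, fell and was above background on 1 of 3 MO arrays. Among 30 endothelial genes 15 rose and 4 fell. The early endothelial regulator etsrp was 1.2, 1.48 and 1.09 on the MO arrays and -0.86, -0.93 and -0.86 on the MP arrays (log2 change 2.14, SE 0.12, adjusted p = 4.1e-06). By contrast, neither of the 2 genes taken as defining vessels passed the test, kdrl (0.28, adjusted p = 0.56) and cdh5 (-0.085, adjusted p = 0.79), and the barrier gene cldn5b (-0.83) fell.

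Blood genes changed in both directions. Of 25 genes tested, 8 were higher in MO, 11 were lower and 6 did not pass the test. The rises included the transcription factors klf1, at 0.021, -0.31 and -0.72 on the MO arrays and -2.4, -2.18 and -2.47 on the MP arrays (log2 change 2.01, SE 0.19, adjusted p = 5.6e-05), klf17 (1.34) and the defining gata1a (1.0). The falls included the globin hbae3, at 5.54, 5.56 and 5.77 on the MO arrays and 6.74, 6.64 and 6.75 on the MP arrays (log2 change -1.09, SE 0.086, adjusted p = 2.5e-05), and the membrane proteins slc4a1a (-1.39), rhag (-1.58) and sptb (-1.29). The 3 probes of slc4a1a ranged from -1.44 to -0.34. Its call was lost with the probe of smallest change and in the single fit of all 12 arrays. Globin paralogs are alike in sequence, and a probe may read more than 1 of them. Of 10 enzymes of heme synthesis 5 fell, among them urod (-0.77), and 1 rose, cpox (0.71). Without MP replicate 1 or 3 only 3 fell. Among 19 myeloid genes 11 rose and 3 fell. The cytokine il34 (3.6), the protease mmp9 (2.99) and the transcription factors cebpb (2.02) and spi1b (0.93) were higher, but the macrophage gene mpeg1.1 (-1.46) and the leukocyte actin regulator coro1a (-1.32) were lower. The neutrophil peroxidase mpx, the second defining gene, did not pass the test by the probe used (adjusted p = 1.0), and its 3 probes disagreed in direction.

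The lens lists held some of the largest falls of the comparison. Crystallins are the proteins that fill lens fibers. Of 22 genes tested, 5 were higher in MO, 12 were lower and 5 did not pass the test, with a median of -1.84 (-1.95, -2.07 and -1.2 within the slides). The gamma crystallin crygmxl2 was -5.82, -3.47 and -5.0 on the MO arrays and -0.88, -0.89 and -0.60 on the MP arrays (log2 change -3.98, SE 0.49, adjusted p = 2.4e-04), and the MO values were spread over more than 2 log2 units while the MP values lay close together. The beta crystallins cryba1b (-3.74) and crybb1l2 (-3.12) fell, and crygm2d13, which was not well above background on any MO array, was at least 3.69-fold lower. The call of crygm2d13 was lost with the floor set after scaling. The gamma crystallins are a family of near-identical copies, and a probe may read several. A few members went the other way. The beta crystallin crybb2 was -2.72, -4.55 and -6.45 on the MO arrays and -7.95, -7.89 and -7.5 on the MP arrays, and since no MP array measured it above background its expression was at least 7.6-fold higher in MO (adjusted p = 0.0080). The call of crybb2 was lost with the floor set after scaling and by the methods' t-test. The alpha crystallin cryaa (-1.13, adjusted p = 0.20), taken as defining, did not pass the test and its groups overlapped. Of the 22 genes, 7 are named by the study. Without MO replicate 3, 9 of 24 crystallins rose and 12 fell, and the median was -0.99. When dim probes were kept as well, the list grew and its median was 0.060.

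Lens membrane genes fell too, with 10 falls and 3 rises among 16 genes. With the floor set after scaling there were 8 falls and 1 rise, and the median was -0.175 against -1.22. The fiber membrane protein lim2.3 was -5.62, -5.01 and -5.87 on the MO arrays and -1.89, -2.55 and -1.97 on the MP arrays (log2 change -3.36, SE 0.26, adjusted p = 2.3e-05), the filament gene bfsp2 (-1.21) fell, and the gap junction gene gja8a was at least 4.97-fold lower, with no MO array above background. The lim2.3 relative lim2.2 (1.6) and the nuclease dnase1l1l (1.19), which clears DNA from lens fibers, rose. The calls of gja8a and dnase1l1l were both lost with the floor set after scaling. The lens regulator foxe3 (0.022, adjusted p = 0.94) did not pass the test. Of 39 retina and pineal genes 20 fell and 6 rose. With the floor set after scaling 12 fell and 6 rose, and the median was 0 against -0.42. The gene atoh7, needed for retinal ganglion cells, was -6.61, -5.61 and -6.48 on the MO arrays and -4.62, -3.65 and -3.92 on the MP arrays (log2 change -2.17, SE 0.34, adjusted p = 8.7e-04). With the floor set after scaling atoh7 did not pass limma's test (adjusted p = 0.176). The pigment cell regulator mitfa (-1.42) and the photoreceptor factor crx (-0.49) also fell, and the early eye field factor rx3 (1.36) rose. The otic list leaned the other way, with 13 rises and 2 falls among 25 genes, including the otolith protein gene stm (1.18) and the placode factor foxi1 (1.07).

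Genes of neurons fell, whereas genes of neural progenitors changed in both directions. The neuronal list was the tissue list with the most genes tested. Of 64 genes tested, 2 were higher in MO, 47 were lower and 15 did not pass the test, with a median of -0.87 (-0.87, -0.79 and -0.92 within the slides). The neurofilament gene nefma was -3.73, -3.51 and -3.41 on the MO arrays and -1.97, -1.92 and -1.74 on the MP arrays (log2 change -1.67, SE 0.14, adjusted p = 3.4e-05), with a gap of more than 1 log2 unit between the groups. The related nefmb (-1.56) and the tubulin regulator stmn1b (-1.55) fell as well, while its family member stmn4 (1.56) rose. The vesicle fusion gene snap25a, one of the defining genes, was 0.31, 0.36 and 0.57 on the MO arrays and 1.64, 1.69 and 1.51 on the MP arrays (log2 change -1.2, SE 0.10, adjusted p = 3.8e-05). The other, elavl3 (-0.84), fell by the probe used, but a second probe of the gene gave a change of 0.018. The study names 29 of these 64 genes. Of 48 genes of transmitter synthesis, receptors and channels 30 fell and 3 rose. With the floor set after scaling 18 fell and 1 rose, and the median was -0.0847 against -0.664. The acetylcholine-degrading enzyme ache (-1.55) and the glutamate receptor subunit grin1a (-1.81) were lower. The GABA-synthesizing enzyme gad1b (-2.36) fell by the probe used, and 1 of its 4 probes gave 0.057. The calcium channel subunit cacna2d2a was at least 1.96-fold lower. Its call was lost with normexp background correction, the floor set after scaling and the methods' t-test.

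Of 21 genes of the proneural list, which holds bHLH factors and some other transcription factors, 14 fell and 2 rose. Only 1 rose without MO replicate 1 or 3 or MP replicate 2 or 3. The neuronal zinc finger gene scrt1a was -2.53, -2.16 and -1.95 on the MO arrays and -0.41, 0.015 and -0.17 on the MP arrays (log2 change -2.02, SE 0.17, adjusted p = 3.6e-05) and nhlh2 (-1.22) and the defining neurod1 (-0.48) fell. The study names 10 of the 21. Among 34 genes of neural progenitors and radial glia 11 rose and 9 fell, and the defining genes sox2 (0.14, adjusted p = 0.44) and sox3 (-0.056, adjusted p = 0.54) did not pass the test, although for sox2 it passed without MP replicate 2 (adjusted p = 0.0085). The radial glial lipid carrier fabp7a (-1.9) was the lowest of the list, and the Notch target her6 (1.08) the highest. Among 45 brain patterning genes 17 rose and 13 fell. The rises included egr2b (2.54) and hoxb1a, markers of hindbrain rhombomeres, and the forebrain and midbrain genes dlx1a (-1.0) and en1b (-1.0) were among the falls. The telencephalic factor foxg1a (-0.44) fell by the probe used, but another of its 3 probes gave 0.21. Axon guidance genes leaned upward, with 24 rises and 4 falls among 48, including sema3h (1.12) and nrp1a (0.93), and glial genes were mixed, with 6 rises and 8 falls among 18.

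Hormone genes of the brain, pituitary and interrenal, the tissues of the stress axis, changed in both directions. Of 31 hypothalamic and pituitary genes 12 fell and 3 rose, a share near that of all genes. The pituitary precursor pomca, which yields the hormone that drives cortisol production, was -6.09, -6.57 and -6.55 on the MO arrays and -4.53, -4.19 and -4.58 on the MP arrays (log2 change -1.97, SE 0.22, adjusted p = 1.5e-04). These levels are dim, and pomca did not pass limma's test with the floor set after scaling (adjusted p = 0.445). The arousal peptide hcrt was -5.52, -5.83 and -6.06 on the MO arrays and -3.68, -3.47 and -3.84 on the MP arrays (log2 change -2.14, SE 0.20, adjusted p = 6.4e-05), and sst1.1 (-1.58), a somatostatin, fell. In the interrenal list 6 of 18 genes fell and 4 rose. Cholesterol import by star, the entry step of steroid synthesis, was lower at the RNA level, with -5.03, -5.24 and -5.06 on the MO arrays and -3.9, -4.44 and -3.8 on the MP arrays (log2 change -1.06, SE 0.21, adjusted p = 0.0029). The call of star was lost with the floor set after scaling and in the single fit of all 12 arrays. The dehydrogenase hsd3b2 moved the other way, at -1.43, -1.94 and -1.93 on the MO arrays and -4.49, -4.71 and -4.25 on the MP arrays (log2 change 2.72, SE 0.19, adjusted p = 1.3e-05). A second probe of hsd3b2 gave 1.16. The enzyme that inactivates cortisol, hsd11b2, fell (-1.37, adjusted p = 7.5e-04). The steroidogenic enzyme cyp17a1 (-0.90) fell by the probe used, while its 4 probes ranged from -0.93 to 0.76. Among 20 endocrine pancreas and gut hormone genes 9 fell and 4 rose, with ins (-1.12) lower, pdx1 (0.87) higher and gcga (-0.045, adjusted p = 0.86) not passing the test.

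Pigment cell genes fell. Of 29 genes tested, 1 was higher in MO, 18 were lower and 10 did not pass the test, with a median of -0.62 (-0.42, -0.83 and -1.11 within the slides). The melanin enzymes tyr (-1.61) and dct fell, the latter at 1.01, 0.86 and 1.14 on the MO arrays and 2.65, 2.23 and 2.65 on the MP arrays (log2 change -1.5, SE 0.13, adjusted p = 4.7e-05), as did the melanosome fiber protein pmelb (-2.0) and pnp4a (-1.89), an iridophore enzyme. The single rise was tfec (0.96), a factor of pigment precursors. Genes of the neural crest, from which these cells come, leaned upward. Of 30 crest genes 13 rose and 5 fell, the defining sox10 (0.58) and foxd3 (0.53) rose, and snai1b (2.6) rose most, while tfap2e (-1.75), a later pigment cell factor, fell.

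Skin and other epithelia held changes in both directions. Of 35 epidermal genes 21 rose and 5 fell, but the 2 defining keratins, krt5 (0.27, adjusted p = 0.12) and krt4 (0.19, adjusted p = 0.10), did not pass the test, although for krt5 it passed without MO replicate 3 (adjusted p = 0.041) and for krt4 it passed without MP replicate 3 (adjusted p = 0.045). The rises included krt99 (2.78) and krt18a.1 (1.58). Outside the list, the keratin krt1-19e was 0.27, 0.48 and 0.52 on the MO arrays and 3.32, 3.12 and 3.29 on the MP arrays, 1 of the largest falls among genes the study does not name (log2 change -2.82, SE 0.10, adjusted p = 6.1e-07). These values are of the probe used, and the 3 probes of the gene ranged from -2.82 to -0.87. Collagens and fibrillar matrix leaned downward, with 15 falls and 8 rises among 30 genes, including fmoda (-1.7) and lum (-1.58), small proteoglycans of connective tissue, while fn1b (2.53) and the collagen-modifying enzymes p4ha1b (2.19) and plod2 (1.34) rose. The claudins, connexins and aquaporins were split, 17 rises to 20 falls among 52, with the water channel aqp3a (-2.39) lower and cldng (2.86) higher. Genes of motile cilia and of left-right asymmetry rose in 18 of 34 cases and fell in 2, led by the asymmetry genes dand5 (3.54), gdf3 (2.45) and spaw (2.32), with 2 of 3 MP arrays above background for dand5 and spaw. The cilium regulator foxj1a (0.98) rose.

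The lists of the gut and the yolk layer also held changes in both directions. In whole embryos the tissue of these changes was not measured. Of 32 endoderm, liver and gut genes 17 rose and 3 fell, with a median of 0.64. The purine-degrading liver enzyme uox was 4.25, 3.68 and 4.17 on the MO arrays and 0.19, -0.11 and 0.87 on the MP arrays (log2 change 3.71, SE 0.24, adjusted p = 9.6e-06). The liver fatty acid binding protein fabp10a rose as well, but its MO values of 2.18, 0.32 and -2.33 ran over more than 4 log2 units, against -3.74, -3.95 and -3.19 in MP. The call of fabp10a was lost with the floor set after scaling and by the methods' t-test. The amylase amy2al2 showed the largest bound of all genes. Its levels were -0.31, -0.98 and -1.14 on the MO arrays and -9.47, -8.47 and -7.95 on the MP arrays, and it was at least 103-fold higher in MO, since no MP array measured it above background (adjusted p = 2.5e-06). In the list of the yolk syncytial layer, which feeds lipids and plasma proteins to the embryo, 17 of 37 genes fell and 11 rose. Without MP replicate 3 only 11 fell. The lipocalin apoda.1 (-2.7), rbp4 and the defining fibrinogen chain fgg (-1.79) fell, whereas the yolk layer factors mxtx1 (1.82) and mxtx2 (1.53) rose.

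For several transcripts of the oocyte, and some other genes, the MO arrays differed among themselves. The germ line list rose, with 13 rises and 1 fall among 21 genes and a median of 1.33 (1.4, 0.87 and 1.21 within the slides). The oocyte linker histone h1m was 3.47, 3.12 and 0.21 on the MO arrays and -2.64, -2.12 and -2.11 on the MP arrays (log2 change 4.56, SE 0.72, adjusted p = 9.5e-04). Replicates 1 and 2 of MO thus lay about 3 log2 units above replicate 3, and replicate 3 still lay above every MP array. The egg coat gene zp3 (5.17, 4.71 and 2.48 in MO, 0.74, 0.63 and 0.91 in MP) and the oocyte importin kpna7 (1.75, 1.11 and -2.04 in MO, -5.24, -5.12 and -4.52 in MP) had the same order. So did the splicing factor gene hnrnpk (4.27, 3.68 and 0.93 in MO, -1.41, -1.54 and -1.12 in MP) and the claudin cldnd (2.34, 1.83 and -0.59 in MO, -3.04, -2.91 and -2.71 in MP). The genes kpna7, hnrnpk and cldnd lie outside the germ line list, and whether their RNA came from the oocyte was not tested. The rise of h1m was at an adjusted p of 9.5e-04, that of kpna7 at 9.2e-04 and that of hnrnpk at 0.0012. The meiotic gene sycp3 (-1.11) fell. The meiotic kinase wee2 (4.01) and cyclin ccna1 (2.54) of the mitosis list also rose, while the general mitotic kinase cdk1 (-0.42) fell. Without MO replicate 3, 15 of 21 germ line genes rose and the median was 1.28. With the floor set after scaling 10 rose and the median was 0.655, and by the methods' t-test 9 rose. Over all alternative settings the count of rises was 3 to 15.

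**Figure D3:**
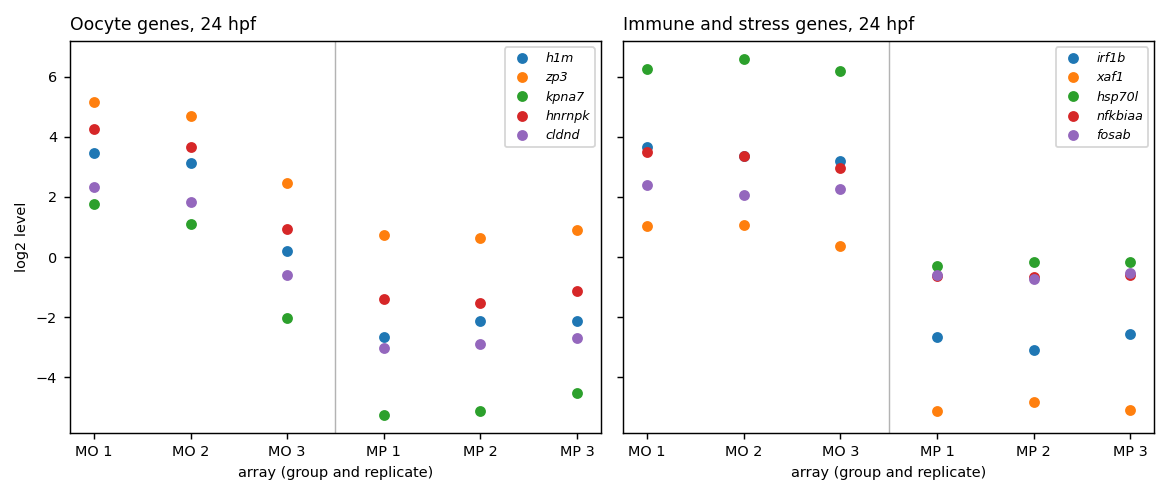
Expression level (log2, relative to each array's set of bright probes) by array at 24 hpf. At left are h1m and zp3 of the germ line list with kpna7, hnrnpk and cldnd from outside it, and at right immune and stress genes. Each point is 1 array, and replicates of a group have no order. For the genes at left MO replicate 3 lies below the other MO arrays, while the immune and stress genes lie close together within each group.

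Immune genes rose in several lists. Interferons are cytokines that switch on antiviral and antigen presentation genes through IRF and STAT factors. Of 19 interferon response genes 13 rose and 1 fell, with a median of 1.11 (1.48, 0.95 and 0.86 within the slides). The transcription factor irf1b was 3.66, 3.37 and 3.2 on the MO arrays and -2.65, -3.11 and -2.55 on the MP arrays, a difference of more than 5 log2 units between the closest arrays of the groups (log2 change 6.18, SE 0.17, adjusted p = 2.7e-07). The antiviral gene mxc (3.89) and the apoptosis gene xaf1 rose too, the latter at 1.04, 1.06 and 0.38 on the MO arrays and -5.11, -4.82 and -5.07 on the MP arrays (log2 change 5.83, SE 0.19, adjusted p = 6.1e-07). The defining gene rsad2 was not tested, since its probe was too dim.

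Antigen processing had the highest median of all 78 lists, 1.73, with 13 rises and 3 falls among 18 genes (1.89, 1.43 and 1.93 within the slides). Without MP replicate 2 only 1 fell. The peptide transporter tap2a was -1.03, -0.59 and -1.66 on the MO arrays and -9.63, -8.16 and -8.59 on the MP arrays, and with no MP array above background it was at least 84.7-fold higher (adjusted p = 3.1e-06). Of the immunoproteasome, the variant that cuts peptides for presentation, psmb13a (4.69) rose and psmb8a was at least 2.79-fold higher, while psmb10 (-0.55) fell. With the floor set after scaling the call of psmb8a was lost. Of 39 standard subunits 4 rose and 7 fell, fewer than among all genes, and the median was -0.040. Without MO replicate 1 only 4 fell, and without MO replicate 2 only 3, with a median of 0.032. The rises were 2, 1, 2 and 2 without MO replicate 1, MO replicate 3, MP replicate 2 or MP replicate 3. In the complement and inflammation list 15 of 28 genes rose and 5 fell. The cytokine tnfb (4.4), the NF-kappaB inhibitor nfkbiaa and the iron hormone hamp (2.21) were among the rises, and the cytokine subunit il12ba was at least 9.23-fold higher. The complement genes c1qa (-2.27) and masp2 (-1.68) fell. The calls of il12ba and c1qa were lost with the floor set after scaling. The macrophage gene mpeg1.1 was lower and the neutrophil gene mpx did not pass the test, as given above, and the part of immune cell number in these lists was not tested.

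Most immediate early genes rose, while most heat shock proteins did not pass the test. Immediate early genes are transcription factors switched on within minutes of a stimulus. Of 52 genes tested, 38 were higher in MO, 5 were lower and 9 did not pass the test, with a median of 0.66 (0.70, 0.63 and 0.59 within the slides). The count of falls was 1 to 3 without any 1 array. The AP-1 subunit fosab was 2.41, 2.06 and 2.27 on the MO arrays and -0.61, -0.72 and -0.53 on the MP arrays (log2 change 2.87, SE 0.11, adjusted p = 8.6e-07), and junba (3.28) and jun (0.86) also rose. Of 40 caspase and Bcl2 family genes 18 rose and 9 fell. The killer gene bbc3 (2.09) and the survival gene mcl1b (2.17) both rose, and a second probe of bbc3 gave 0.61.

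Among 52 heat shock proteins and chaperones 8 rose and 11 fell, a smaller share than among all genes, and without MO replicate 2 or MP replicate 1 only 5 rose. One of the rises was among the largest of the whole comparison. The inducible chaperone hsp70l was 6.24, 6.6 and 6.18 on the MO arrays and -0.30, -0.17 and -0.17 on the MP arrays, so it was among the brightest genes in MO and below the typical bright probe in MP (log2 change 6.56, SE 0.12, adjusted p = 2.3e-08). The constitutive relatives hspa4a (-0.94) and hspa4l (-1.25) and the co-chaperone dnaja1 (-1.03) fell. In the unfolded protein and integrated stress response 17 of 49 genes rose and 8 fell, a share near that of all genes, with a median of 0.20. The phosphatase subunit ppp1r15a (3.77), which restores translation after stress, rose, while manf (-0.78) and calr (-0.57) fell. Of 29 hypoxia genes 14 rose and 2 fell. The oxygen sensor egln3 was 4.91, 4.7 and 4.63 on the MO arrays and 1.16, -0.66 and 1.8 on the MP arrays (log2 change 3.98, SE 0.51, adjusted p = 3.1e-04), where MP replicate 2 lay below the other controls, and ddit4 (2.03) rose.

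**Figure D4:**
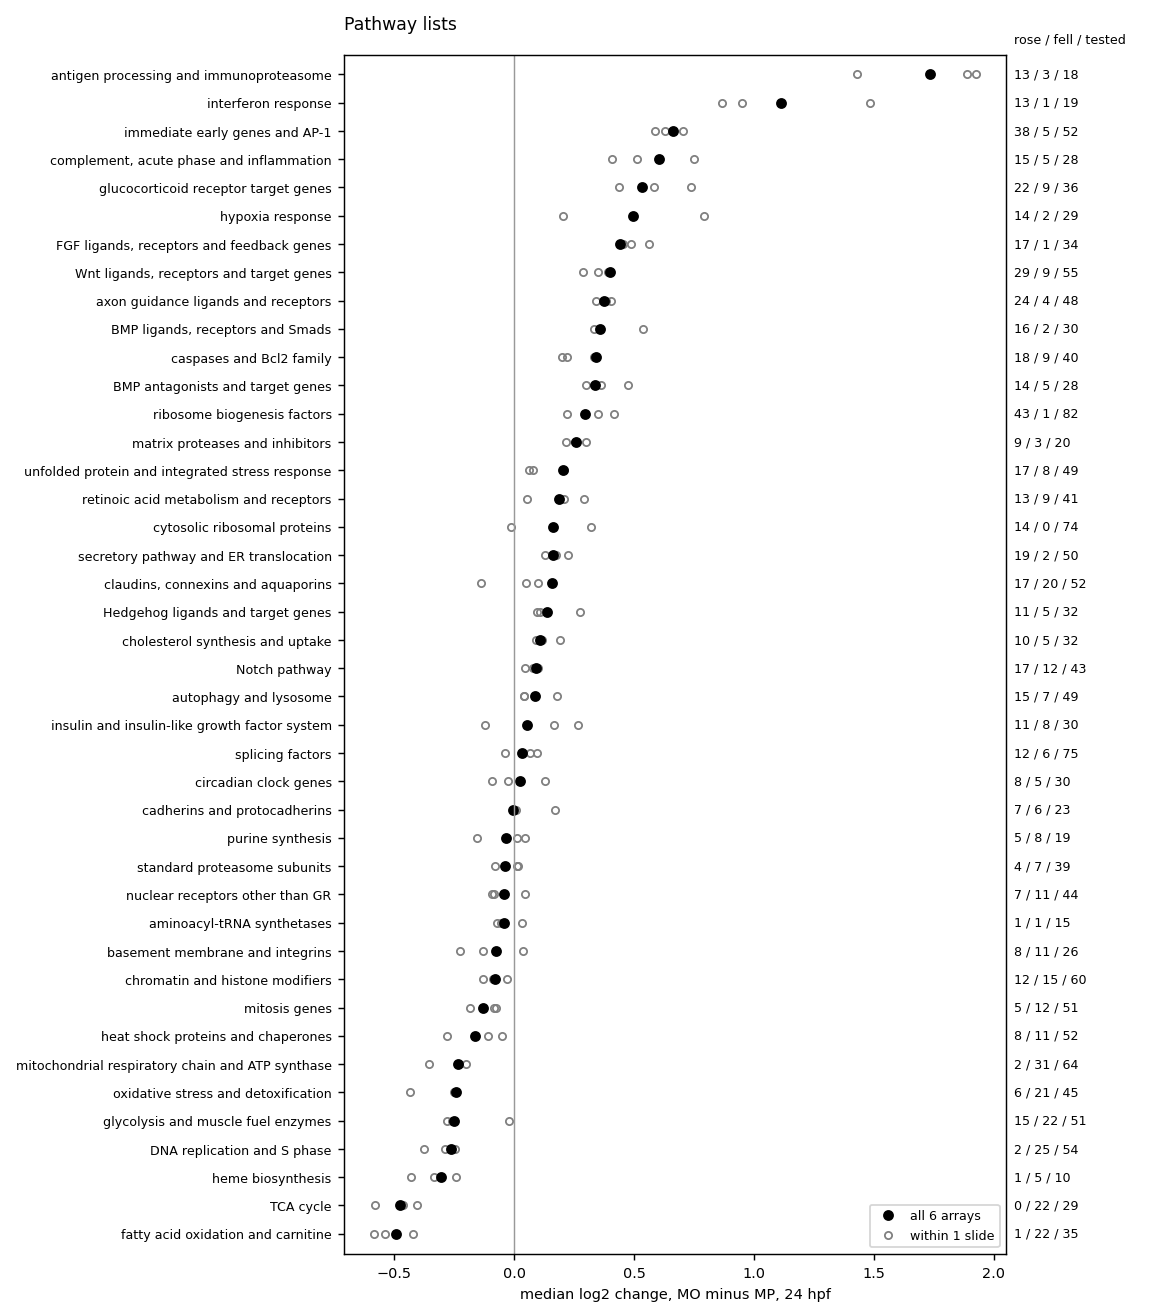
Median log2 change, MO minus MP at 24 hpf, of the pathway lists (filled point), with the medians within each of the 3 slides (small open points), and the counts of genes that rose, fell and were tested at the right. Antigen processing, interferon and immediate early genes lie to the right of 0, and fatty acid oxidation and the tricarboxylic acid cycle lie to its left.

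Genes known from other vertebrates as targets of the GR moved in both directions. Of 36 genes tested, 22 were higher in MO, 9 were lower and 5 did not pass the test, and the median was 0.53. The 2 genes taken as defining, both induced by glucocorticoids in mammals, went opposite ways. The receptor co-chaperone fkbp5 was -1.91, -2.31 and -2.16 on the MO arrays and -2.91, -2.58 and -2.71 on the MP arrays, a small rise (log2 change 0.61, SE 0.15, adjusted p = 0.0097). The leucine zipper gene tsc22d3 was -1.62, -1.36 and -1.66 on the MO arrays and -1.09, -1.12 and -1.04 on the MP arrays, a small fall (log2 change -0.46, SE 0.12, adjusted p = 0.011). Neither change passed the test when the probes of the gene were averaged. The NF-kappaB inhibitor nfkbiaa was 3.51, 3.36 and 2.98 on the MO arrays and -0.62, -0.67 and -0.59 on the MP arrays (log2 change 3.91, SE 0.13, adjusted p = 6.1e-07), and the cytokine signalling inhibitor socs1a (3.39) rose. The kinase sgk2b (-1.7), hsd11b2 and the muscle ubiquitin ligase trim63a (-0.81) fell. Some members of this list, nfkbiaa among them, are also members of the inflammation list. Of 30 circadian clock genes 8 rose and 5 fell (3, 2 and 2 without MO replicate 2, MO replicate 3 or MP replicate 3), a share below that of all genes, and none of these exceeded a doubling except for 1 rise.

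The general machinery of the cell was split by process. Of 54 genes of DNA replication 25 fell and 2 rose, a share near that of all genes, with a median of -0.26. In the single fit of all 12 arrays there were 2 falls and no rise. The falls included the sliding clamp pcna (-0.47) and gins4 (-0.97) of the replicative helicase. Of 51 mitosis genes 12 fell and 5 rose, a smaller share than among all genes. Ribosome assembly went the other way. Of 82 biogenesis factors 43 rose and 1 fell, a share near that of all genes, with a median of 0.30. Among the rises were polr1b (1.04), a subunit of the polymerase that makes ribosomal RNA, and the nucleolar protein ncl (0.39). Of 74 ribosomal proteins 14 rose and none fell, with 60 not passing limma's test. The 18.9% that changed compare with 48.3% of all genes. Under quantile normalization the list's median was -0.0085. The count of rises was 8, 5, 9 and 6 without MO replicate 1, 2 or 3 or MP replicate 1. Of 15 aminoacyl-tRNA synthetases 1 rose and 1 fell, again a smaller share than among all genes. In cholesterol metabolism 10 of 32 genes rose and 5 fell, a share near that of all genes, with a median of 0.11. The count of falls was 2 to 3 without any 1 array except MP replicate 2. The sterol sensor insig1 was 0.94, 0.74 and 0.57 on the MO arrays and -1.33, -1.9 and -0.93 on the MP arrays (log2 change 2.14, SE 0.22, adjusted p = 1.1e-04), while the rate-limiting enzyme hmgcra (0.086, adjusted p = 0.77) did not pass the test.

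Early patterning signals showed a like mix. Of 28 BMP antagonists and targets 14 rose and 5 fell. The dorsal antagonist chrd was 1.23, 0.76 and 0.95 on the MO arrays and -1.71, -1.48 and -1.79 on the MP arrays (log2 change 2.64, SE 0.14, adjusted p = 4.0e-06), and the ventral repressors of dorsal genes, ved (3.25) and vox (2.7), rose by as much. The general BMP target id1 (0.11, adjusted p = 0.28) did not pass the test, and its relative id4 (-0.80) fell. Of 30 BMP ligands, receptors and Smads 16 rose and 2 fell, and the study names 17 of them. In the Hedgehog list 11 of 32 rose and 5 fell (3 without MO replicate 1 or 2 or MP replicate 1 or 2). This share was near that of all genes and the median was 0.13. The Hedgehog target gli1 (0.89) was higher. In the Notch list 17 of 43 rose and 12 fell, where the rises were led by the clock genes described above and the falls by her8.2 (-1.34) and helt (-1.28), repressors of the developing brain. In the insulin list 11 of 30 rose and 8 fell, with a median of 0.054. Of these, irs2a (2.99) and igfbp1a (1.77), a binding protein raised by hypoxia and stress, were higher.

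Over all genes that the study does not name, the rises above the others were those of amy2al2, tap2a, hsp70l, irf1b and xaf1, followed by chia.6 (5.78), a chitinase, and kpna7. The list of the 15 largest rises also held irg1l (4.84), an enzyme of activated macrophages in mammals and of infected epidermis in zebrafish, ghrhra (4.45), a receptor of growth hormone-releasing hormone, and the oocyte forms gtf3ab (4.44) and eef1a1l3 (4.61) of an RNA polymerase III factor and a translation factor. Of the 15 largest falls among the same genes 6 were in genes of the lens lists, and cryba1l2 (-2.81) is a crystallin outside them. Others were abrab (-3.8), a muscle gene measured above background on 2 of 3 MO arrays, and perm1b (-2.87), a muscle regulator of mitochondrial genes. The ferritin-like gene fthl28 (-2.77) fell as well. The receptor gene oprl1 was at least 2.02-fold lower and kbtbd12 at least 3.24-fold lower, with no MO array above background. Both calls were lost with the floor set after scaling, and that of oprl1 also with normexp background correction.

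The same contrast at 36 hpf gives a second set of embryos. Whether a change differed between the time points was tested as the interaction of treatment with time over all 12 arrays, and this passed for 1.55% of the 10391 genes tested, 161 genes. That count depends on most arrays. It was 62 to 106 without 1 of the arrays at 24 hpf, 78 without MP replicate 1 at 36 hpf and 31 with slide as a block. MO replicate 2 at 36 hpf was the dimmest of the series and stood apart from the other MO arrays of its age, and without it 1619 of 10356 genes passed. The slides and scan sessions of the 2 time points were separate, so time and slide cannot be told apart, and the MO arrays at 36 hpf were dimmer, with 65.9 to 70.7% of probes well above background. Among the interferon response genes 3 of the tested members passed, and among those of antigen processing 4. For irf1b the change was 6.18 at 24 hpf and 3.49 (adjusted p = 0.0070) at 36 hpf, and for tap2a it was 7.7 and 3.61 (adjusted p = 0.027). No MP array at 24 hpf measured tap2a above background, so its 7.7 is not an exact size. Heme synthesis had the most members that passed relative to its size, 6 of 10, with a median change of -0.30 at 24 hpf and 0.84 at 36 hpf. The lens membrane list had 7 of 17 members pass, and over the 16 tested at 24 hpf its median went from -1.22 to -2.94. Of the lists described first, the segmentation clock had 1 such gene, fast muscle 2 and the pan-neuronal list 1. Without MO replicate 2 at 36 hpf these counts were 9, 6 and 7, and those of heme synthesis, interferon response and antigen processing were 7, 6 and 5. The median change of heme synthesis at 36 hpf was then 0.75 and that of the lens membrane list -2.48.

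The controls themselves changed between 24 and 36 hpf, and the values stand side by side below without a comparison, since both differences use the MP arrays at 24 hpf. In MP embryos the median of the segmentation clock list moved by -0.55 from 24 to 36 hpf, and the MO minus MP median at 24 hpf was 1.21. For the tailbud list the values were -0.47 and 0.97. For fast muscle they were 1.69 and -1.43, for lens crystallins 2.49 and -1.84, and for pan-neuronal genes 0.93 and -0.87. For antigen processing they were -0.075 and 1.73, for the interferon response 0.23 and 1.11, and for immediate early genes 0.11 and 0.66. Melanophore genes had 0.21 and -0.62. Globin and red cell genes had -1.28 and -0.23, and heme synthesis -1.33 and -0.30. The part of developmental age in any difference between MO and MP was not tested.

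**Figure D5:**
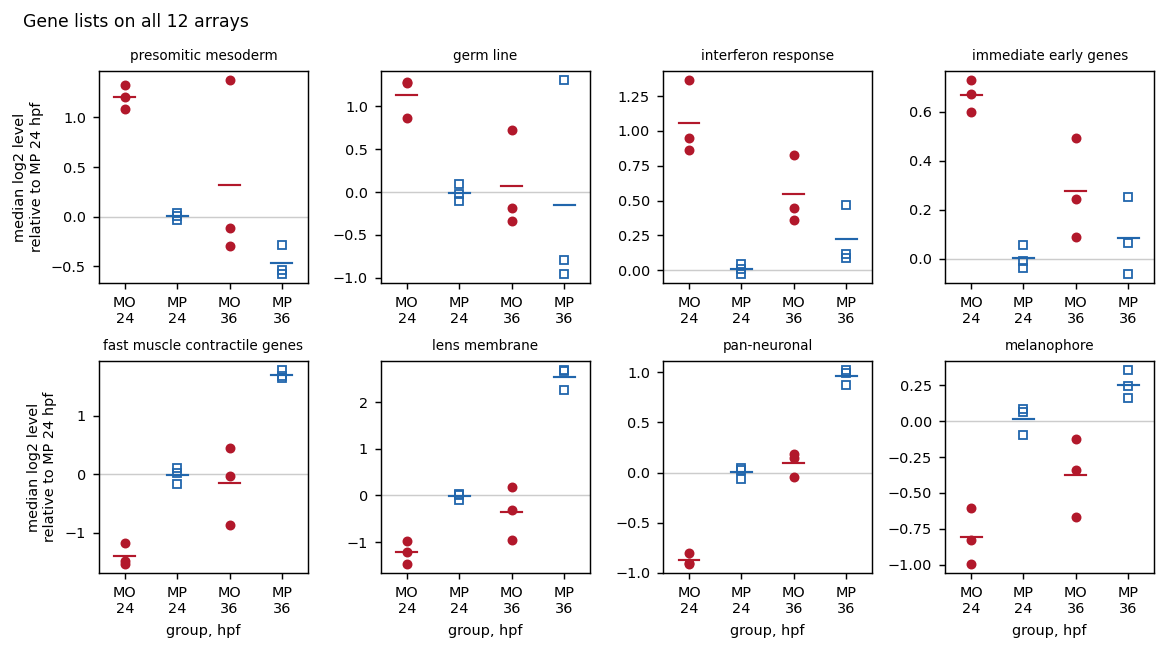
Level of 8 lists on all 12 arrays, as the median over members of each gene's log2 level minus its mean on the MP arrays at 24 hpf. Each point is 1 array, by group, and horizontal bars are group means. The MO arrays at 24 hpf lie above the MP arrays of that age for the 4 lists in the top row and below them for the 4 in the bottom row. MO replicate 2 at 36 hpf stands apart for several lists, among them the segmentation clock, germ line, fast muscle and lens membrane. For the germ line 1 MP array at 36 hpf stands apart as well.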

How the data were processed

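Of 12 Agilent one-color arrays, each with RNA of 1 pool of whole zebrafish embryos, the 6 at 24 hpf are compared here. Per the file headers, the deposited intensity of each spot came from Feature Extraction 10.5.1.1 (Agilent), which subtracted background but did not scale arrays to each other. Besides, the authors deposited their own processed table, a score whose scale and centring are not given in the sources used here, and it served as an alternative only. Intensities were raised to a floor of 0.05, outlier spots were left out, and each array was scaled to its median over 19114 probes above 50 on all 12 arrays, as the log2 of the ratio. The brightest named probe stood for a gene, with names from the array annotation and RefSeq, and 10353 genes were tested where well above background on every array of at least 1 group, with limma 3.58.1 in R 4.3.3 (lmFit, eBayes with a trend, two-sided), after the script was tested on simulated data. Precision was limited by the 3 arrays per group. Of each list, the 3 largest rises and falls without overlap that the study does not name were eligible to be named, over all genes the 15 largest, as were the genes defining a list. Fold bounds set a probe not well above background in any array of a group at the higher of its own value and the dimmest value well above background on each array. The members and lists were chosen with earlier results of these data known. Alternatives in scaling, background, filters, probes, test, blocks and arrays are given in the closing section. The search of promoters for receptor motifs was not run, and 1 list and a few genes are not reported here.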

Additional observations from a re-analysis of the deposited data

Results flagged for a closer look

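For 17 of the genes described, limma's test of treatment by time over all 12 arrays passed, meaning that the MO minus MP change at 36 hpf differed from that at 24 hpf. Below, each gene has its log2 change at 24 hpf and at 36 hpf, the difference of 36 hpf minus 24 hpf, and the adjusted p of that difference. For tap2a, il12ba and amy2al2 no MP array at 24 hpf was above background. Their changes at 24 hpf and their differences are therefore not exact sizes. Among immune genes, the differences were those of irf1b (6.18 and 3.49, difference -2.69, adjusted p = 0.019), xaf1 (5.83 and 2.91, difference -2.92, adjusted p = 0.014), tap2a (7.70 and 3.61, difference -4.08, adjusted p = 0.039) and psmb13a (4.69 and 1.99, difference -2.70, adjusted p = 0.029). They further included nfkbiaa (3.91 and 1.60, difference -2.30, adjusted p = 0.0099), socs1a (3.39 and -0.48, difference -3.88, adjusted p = 0.0012) and il12ba (4.47 at 24 hpf, not tested alone at 36 hpf, difference -3.82, adjusted p = 0.033). The complement gene masp2 (-1.68 and 0.66, difference 2.34, adjusted p = 0.0097) ran the other way. Among lens and muscle genes they were bfsp2 (-1.21 and -3.88, difference -2.67, adjusted p = 0.033), dnase1l1l (1.19 and -4.50, difference -5.69, adjusted p = 0.0017) and the troponin tnni2b.2 (2.56 and -5.12, difference -7.67, adjusted p = 2.7e-04). Genes of the nervous system were hcrt (-2.14 and 0.26, difference 2.4, adjusted p = 0.014) and nefmb (-1.56 and -0.22, difference 1.35, adjusted p = 0.046). Genes of blood, yolk layer and gut were urod (-0.77 and 1.17, difference 1.94, adjusted p = 0.0036), fgg (-1.79 and 0.03, difference 1.82, adjusted p = 0.02), rbp4 (-2.08 and 0.24, difference 2.32, adjusted p = 0.0036) and amy2al2 (7.82 and 2.52, difference -5.31, adjusted p = 0.0051). All 17 kept their direction in 16 other settings, but 6 passed with slide as a block, 14 with the replicate block, 11 with positive control spots and 9 to 17 without 1 array, 17 being without MO replicate 2 at 36 hpf, the dimmest array. Those of dnase1l1l, nfkbiaa, socs1a and tnni2b.2 passed in all 16, while those of nefmb, bfsp2, il12ba, tap2a, psmb13a and fgg passed in 4, 5, 6, 6, 7 and 8. These 16 settings varied scaling, blocks and arrays, but not the floor, background correction, filters or probes. With the floor set after scaling the rises of dnase1l1l and tnni2b.2 at 24 hpf did not pass limma's test. The time points were hybridized on separate slides and scanned in separate sessions, so time and batch cannot be told apart. Dixon's test for an outlying array was not run, since each group holds 3 arrays.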

How the results depend on the processing

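Of 5001 changed genes, 2519 rose and 2482 fell. The count was 14579 over all probes (7033 higher, 7546 lower), of 35338 tested, and 2212 in a single fit of all 12 arrays (1075 higher, 1137 lower), which shares its spread with the dimmer 36 hpf arrays. Scaling to positive control spots called 1613 genes higher and 2357 lower, moving the median change of all genes to -0.080 and the share of rises among calls from 50.4% to 40.6%, and the cause was not tested. The methods' t-test called 5158 genes unadjusted and 3898 after Benjamini-Hochberg. Without 1 array the counts were 4166 to 5072. Other settings kept all 3 counts within 1.5 times. Replicate numbers did not pair the arrays (correlations of same-numbered deviations -0.15, -0.052 and -0.029), and with the replicate block 4597 genes were called (2327 higher, 2270 lower).

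The count of genes that differed between time points, 161, was 384 with positive control spots, 31 with slide as a block, 117 with the replicate block and 62 to 1619 without 1 array, an alternative chosen after seeing the data. The highest was without MO replicate 2 at 36 hpf, and the counts without MO replicate 1, 2 or 3 or MP replicate 1, 2 or 3 at 24 hpf were 74, 62, 106, 72, 62 and 69, and 78 without MP replicate 1 at 36 hpf.

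Between 39 and 48 list medians lay above 0, against 44. In 17 lists the median had another sign under at least 1 setting, 36 cases in all. The main median of these was at most 0.252 in size except for lens crystallins. In 9 cases the main median exceeded its own spread between replicates, namely autophagy (-0.00014, positive control spots), ribosomal proteins (-0.0085, quantile normalization), hypothalamus and pituitary (0.040), endocrine pancreas (0.0067) and nuclear receptors (0.061, all with normexp background correction), lens crystallins (0.060, no filter on dim probes), glycolysis (0.035) and Notch (-0.040, both with the probe of smallest change), and nuclear receptors without MO replicate 3 (0.0015, with -0.0854 the lowest value without 1 array). The cause was not tested. Medians that came to exactly 0 are not counted in the 36 cases. With the floor set after scaling this held for several lists, among them lens crystallins (0 against -1.85) and retina and pineal genes (0 against -0.42). That floor also moved the median of lens membrane genes from -1.22 to -0.175 and that of transmitter genes from -0.664 to -0.0847. Of 227 genes described, 3 turned sign with the probe of smallest change, elavl3 (0.018), foxg1a (0.21) and gad1b (0.057). The floor set after scaling ended 31 calls and the single fit 38, more than other settings. The number of genes called in a list fell by more than 1.5 times in 54 of 78 lists in the single fit, for example DNA replication (2 falls against 25), axon guidance (6 rises against 24) and receptor targets (7 rises against 22), in 8 lists by the methods' t-test, 7 with positive control spots, 6 with the floor set after scaling and at most 3 without 1 array. Probes not above background in a group have only a bound.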
